A study of Homo sapiens with 2 samples.

Results

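The replication-dependent histone genes are the genes that supply new histones while DNA is copied. They were taken here by symbol and annotation, as every protein-coding gene whose symbol starts with HIST1H, HIST2H, HIST3H or HIST4H, which gave 71 genes of the 46732 listed in the deposited gene table. That rule uses no measured value, though it was set with earlier results of these data known. The RNA came from T47D, a human breast cancer line of luminal type that carries the estrogen receptor, grown as mammospheres. These are balls of cells in suspension, here grown for 7 days, passaged and grown for 7 more as secondary mammospheres. One library was labelled CIC knockdown and the other control, so there were 2 libraries and no replicates; CIC is a transcriptional repressor, and no label says how it was knocked down. No difference below has a replicate check, no p-value can be given, and all intervals cover counting error only.

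Histone proteins package DNA: a pair each of H2A, H2B, H3 and H4 forms the nucleosome core and H1 binds the linker between cores. The replication-dependent genes lie in clusters, are switched on at the start of S phase and make mRNAs without introns that, alone among animal mRNAs, end in a conserved stem-loop in place of a poly(A) tail. The stem-loop binding protein SLBP holds that end, and cleavage depends on the U7 small nuclear ribonucleoprotein. Some of these genes can also give longer, polyadenylated mRNAs, above all in cells that leave the cycle. The kit used here takes total RNA, so mRNAs without a tail can be read.

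The stem-loop is shown first, since the short form of these mRNAs ends with it. It was searched as a 16-base motif that begins GGCNCTT and ends AGNGCC, with NTN between, where N is any base, on the sense strand of the GENCODE 29 transcripts; the motif was set after the transcripts had been looked at. Transcripts of 32 of the 71 genes held it, against 46 of 83129 protein-coding transcripts in all, or 0.0553%; of those 46, 10 came from other genes. In 34 of the 71 genes every GENCODE model stopped at the stop codon, before any stem-loop. In 16 genes a GENCODE transcript held the motif and ran at least 100 bases past it, with a poly(A) signal near its end. The motif alone therefore does not mark the short form. The windows below run 5′ to 3′, are written as DNA, and have the 16-base stem-loop in capitals with 5 bases on each side; they show the 6 forms found, some in more than 1 class.
HIST1H2AG: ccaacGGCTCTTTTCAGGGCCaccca
HIST1H2AI: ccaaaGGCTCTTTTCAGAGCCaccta
HIST2H2BE: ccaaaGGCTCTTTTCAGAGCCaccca
HIST1H2BD: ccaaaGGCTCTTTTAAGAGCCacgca
HIST1H3E: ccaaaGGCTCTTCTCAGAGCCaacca
HIST1H3H: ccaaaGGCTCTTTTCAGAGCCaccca
HIST1H4J: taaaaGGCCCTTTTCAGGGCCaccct
HIST2H4A: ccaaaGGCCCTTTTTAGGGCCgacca

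The form in HIST1H2AI was the usual one and was found in 6 H2A, 8 H2B and 3 H3 genes. The form in HIST1H2BD was found in 3 H2B and 2 H3 genes. H4 genes had 2 forms of their own with a different stem, that of HIST1H4J in 5 genes and that of HIST2H4A in 3. The forms of HIST1H3E and HIST1H2AG were found in 1 gene each.

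The library labelled CIC knockdown held 68420805 estimated counts and the control 47099221. Counts were scaled by these totals and by TMM factors, and a ratio or log2 ratio below is CIC knockdown over control. CIC itself was not lower in the library labelled CIC knockdown, with 872 counts (1.65 TPM) there and 607 counts (1.65 TPM) in the control, a ratio of 0.98 (95% counting interval 0.882 to 1.09). The RNA level therefore gives no check of that label. All 10 luminal markers chosen for the cell line, among them KRT8, KRT18, ESR1 and GATA3, had at least 100 counts. The summed counts of 5 basal markers were 241 in the library labelled CIC knockdown and 166 in the control. In the same order MYLK had 149 and 63 counts, ACTA2 84 and 65 and TP63 8 and 38, with KRT5 and KRT14 at 0 in both. The sums of 6 leukocyte markers were 167 and 100, mostly CD68 with 146 and 89, and PTPRC and CD3E were at 0 in both libraries. Those of 4 endothelial markers were 75 and 30. Those of 5 fibroblast markers were 8605 in the library labelled CIC knockdown and 2457 in the control, nearly all of it COL3A1. COL1A1 had 168 and 58 counts and DCN 22 and 15, with COL1A2 and PDGFRB at 0 in both libraries. The part of these markers in the histone results was not tested.

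Histone mRNA was moderately more abundant in the library labelled CIC knockdown. The 71 genes together had 391546 counts there and 231458 in the control, a scaled ratio of 1.15 (1.15 to 1.16). In TPM, which is per transcript length, they came to 11888 and 9930, or 1.19% and 0.993% of all TPM. Of the 71 genes, 63 had at least 100 counts in 1 library, and all 63 had them in both. Their median log2 ratio was 0.26, with a range of -0.32 to 0.62, against 0.023 over the 13722 genes with that many counts. Of the 63 genes, 53 had a log2 ratio above 0. The share of all genes above 0 was not computed, but their median was above 0 too. In bulk RNA, more cells in S phase and more histone mRNA per cell cannot be told apart.

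A gene was counted as higher where its ratio was at least 25% above 1, or lower where it was at least 20% below, with its counting interval on that side of 1. By that 25% rule 18 of the 63 genes (28.6%) were higher and 0 lower, against 12.4% higher and 9.58% lower among all genes tested. No histone gene reached 2-fold, which 1.22% of all genes did upward. By the interval alone, 51 genes (81.0%) were higher and 7 lower, against 33.8% and 27.3% of all genes. With halved counts, which widen the intervals, 48 were higher and 5 lower, and the shares of all genes were not computed. The 70 other protein-coding genes whose longest transcript was under 600 bases had a median log2 ratio of -0.0092, and the 298 of 600 to 1000 bases one of 0.027. The part of transcript length, or of a missing poly(A) tail, in the histone values was not tested.

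**Figure D1:**
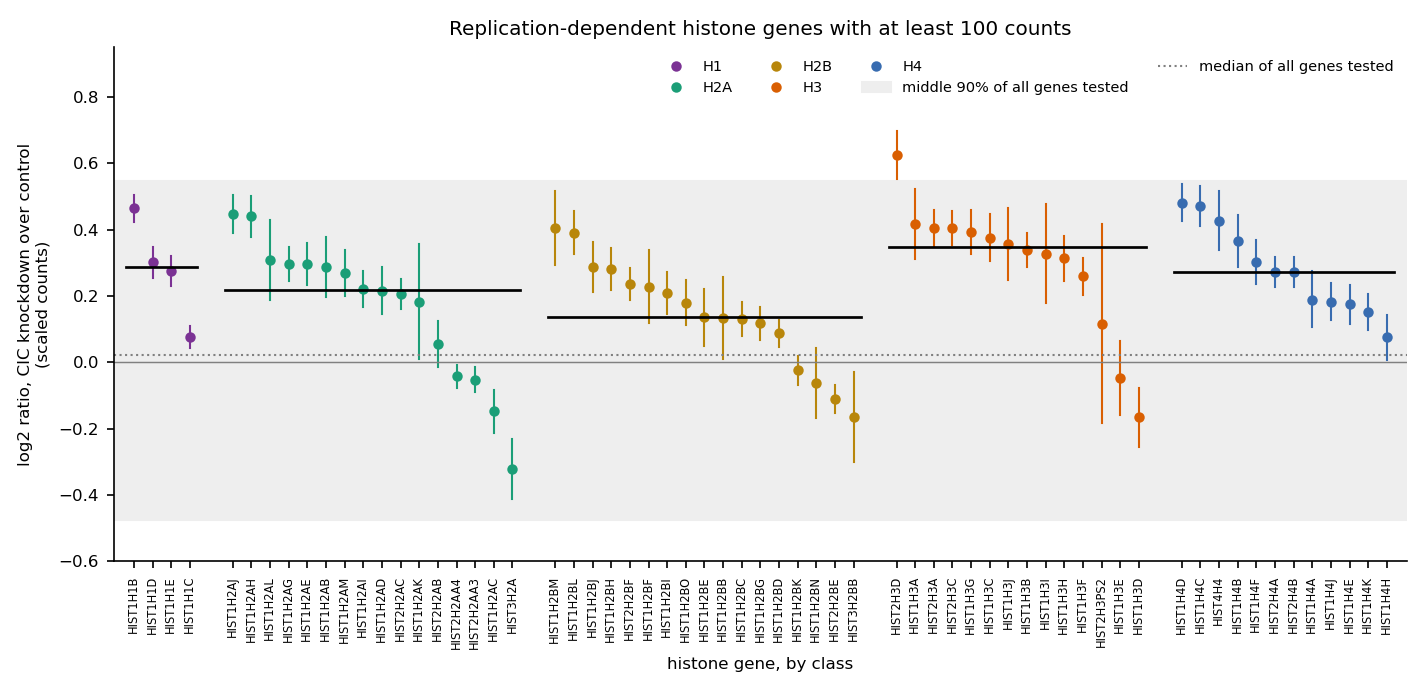
Log2 ratio (vertical axis, CIC knockdown over control, scaled counts) of the 63 histone genes with at least 100 counts, grouped by class, with 95% counting intervals as vertical lines and class medians as black bars. The grey band holds the middle 90% of all genes tested (-0.48 to 0.55), and of the histone genes only HIST2H3D lies above it.

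The 8 genes below 100 counts included the 4 testis types. HIST1H1T, the testis linker histone, had 70 and 55 counts in the library labelled CIC knockdown and the control. HIST1H2AA had 0 and 2, and HIST1H2BA and HIST3H3, the other testis types, were at 0 in both, as were HIST1H1A and HIST1H4L. A count of 0 allows up to 3 counts. HIST1H4G had 1 and 0 counts. HIST1H4I had 79 and 41, and it lies within the span of the longer HIST1H2BK transcript, on the other strand.

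Among the linker histones, all 4 genes with enough counts had intervals above 1, against 33.8% of all genes. The class sum had a ratio of 1.19 (1.18 to 1.21). HIST1H1B, which encodes H1.5, had 14650 counts in the library labelled CIC knockdown against 7242 in the control, or 280 and 198 TPM, a log2 ratio of 0.46. HIST1H1D (H1.3) had 206 and 163 TPM and a log2 ratio of 0.30, and HIST1H1E (H1.4) had 204 and 164 TPM and 0.27. HIST1H1C, which encodes H1.2 and was the most abundant linker gene, differed least, with 390 and 361 TPM and a log2 ratio of 0.076. H1.2 is known to be made outside S phase too. It weighed on the class value: without it the summed ratio was 1.28.

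H2A and H2B, which enter the nucleosome as dimers, showed the smallest summed differences and most of the genes whose interval lay below 1. The 16 H2A genes with enough counts had a summed ratio of 1.10 (1.09 to 1.11) and a median log2 ratio of 0.22, with 11 intervals above 1 and 4 below. The 17 H2B genes had 1.09 (1.08 to 1.10) and 0.13, with 13 above and 2 below. The shares above 1 were 68.8% of H2A and 76.5% of H2B genes. Among all genes 33.8% of intervals lay above 1 and 27.3% below. By the 25% rule 2 genes of each class were higher, 12.5% of H2A and 11.8% of H2B genes, which is the rate of all genes (12.4%).

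The highest H2A ratios were those of HIST1H2AJ, with 254 TPM in the library labelled CIC knockdown and 182 in the control (log2 ratio 0.45), and HIST1H2AH, with 193 and 139 TPM (0.44). The 2 most abundant H2A genes, HIST2H2AA4 and HIST2H2AA3, were almost level, with 447 and 449 TPM and with 416 and 421 TPM. Their log2 ratios were -0.042 and -0.052, and their intervals lay just below 1. HIST2H2AC, the next most abundant, had 367 and 310 TPM and a log2 ratio of 0.21. The lowest were HIST3H2A, with 67.2 TPM in the library labelled CIC knockdown and 81.9 in the control (log2 ratio -0.32), and HIST1H2AC, with 124 and 134 TPM (-0.15). The value of HIST1H2AC turned in the gene table with assembled transcripts, where it had 7753 and 2660 counts and a log2 ratio of 1.00. HIST3H2A was the lowest of all 63 genes.

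Among H2B genes, HIST1H2BM had 65.4 and 48.2 TPM (log2 ratio 0.40) and HIST1H2BL 184 and 137 TPM (0.39). The 3 most abundant H2B genes differed less: HIST1H2BD had 321 and 282 TPM (log2 ratio 0.087), HIST1H2BG 292 and 262 TPM (0.12) and HIST1H2BC 289 and 257 TPM (0.13). The lowest were HIST3H2BB, with 34.3 TPM in the library labelled CIC knockdown and 37.6 in the control (-0.17), and HIST2H2BE, with 72.5 and 76.5 TPM (-0.11). HIST2H2BE is deposited as a single model of 2223 bases, which runs far past its stem-loop and is known for a polyadenylated mRNA.

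H3, which with H4 forms the tetramer laid down first on new DNA, had the largest summed ratio of the 5 classes, 1.27 (1.2503 to 1.284), and a median log2 ratio of 0.35. By the 25% rule 9 of its 14 genes with enough counts (64.3%) were higher, against 12.4% of all genes. HIST2H3D had 5163 counts in the library labelled CIC knockdown against 2285 in the control, or 170 and 108 TPM. Its log2 ratio of 0.62, a ratio of 1.54 (1.47 to 1.62), was the highest of all 63 genes. HIST1H3A followed with 70.9 and 51.9 TPM (0.42). The 3 most abundant H3 genes were HIST1H3B, with 285 and 220 TPM (0.34), HIST2H3C, with 258 and 190 TPM (0.40), and HIST2H3A, with 239 and 176 TPM (0.40).

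Only HIST1H3D and HIST1H3E had log2 ratios below 0 in that class. HIST1H3D had 38.1 TPM in the library labelled CIC knockdown and 41.8 in the control (-0.17), and HIST1H3E 52.8 and 53.2 TPM (-0.047, interval across 1). The deposited model of HIST1H3D is 921 bases long, starts at the same base as that of HIST1H2AD on the same strand and runs through it, so reads of the HIST1H2AD stretch, which had 4498 and 2641 counts, cannot be assigned to 1 of the 2 genes for certain.

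All 12 H4 genes with enough counts had intervals above 1, against 33.8% of all genes. With halved counts 11 of the 12 did. The H4 summed ratio was 1.21 (1.20 to 1.23), the median log2 ratio of the 12 genes 0.27 and their range 0.075 to 0.48. HIST1H4D had 321 TPM in the library labelled CIC knockdown and 225 in the control (log2 ratio 0.48), and HIST1H4C 257 and 181 TPM (0.47). The most abundant were HIST2H4A and HIST2H4B, with 414 and 334 TPM and with 413 and 334 TPM (0.27 each), and HIST1H4K, with 308 and 271 TPM (0.15). The lowest was HIST1H4H, with 180 and 166 TPM (0.075).

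**Figure D2:**
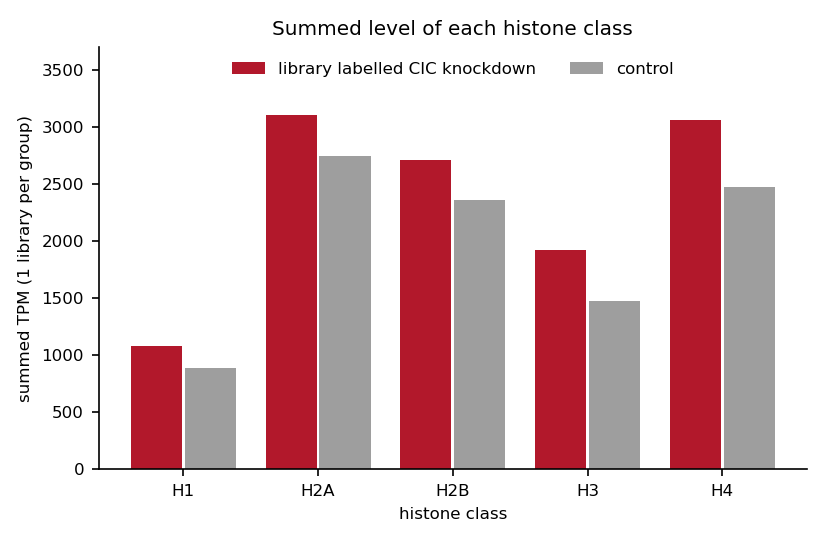
Summed TPM (vertical axis) of each histone class in the library labelled CIC knockdown (red, left) and the control (grey, right), 1 library each and so without error bars. Every class is higher in the library labelled CIC knockdown, from 3106 against 2743 for H2A to 1924 against 1470 for H3.

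The classes kept similar shares of the histone mRNA pool. H2A made up 26.1% of histone TPM in the library labelled CIC knockdown and 27.6% in the control, H2B 22.8% and 23.7%, H3 16.2% and 14.8%, H4 25.8% and 24.9%, and H1 9.10% and 8.95%. The shares of H3, H4 and H1 were thus slightly larger in the library labelled CIC knockdown, and those of H2A and H2B slightly smaller.

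By cluster, the HIST1 genes on chromosome 6 had a summed ratio of 1.18 (1.17 to 1.18) and a median log2 ratio of 0.27 over 48 genes. On GRCh38 they lie in 4 blocks, separated by gaps of over 200000 bases. The first, chr6:25726063-25727345, holds only HIST1H2AA and HIST1H2BA, which were at or near 0. The main block, chr6:26017032-26285499, holds 32 genes and had a ratio of 1.16 (1.15 to 1.17). The third, chr6:27132316-27147562, had 1.15 (1.13 to 1.17) over 5 genes, and the last, chr6:27807479-27893891, had 1.23 (1.217 to 1.246) over 16.

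The HIST2 genes, which lie on chromosome 1 and with 1 exception within chr1:149782689-149887916, had a ratio of 1.11 (1.10 to 1.12) and a median log2 ratio of 0.22 over 12 genes. Within HIST2 the classes differed: the 4 H2A genes had a ratio of 1.01 (0.998 to 1.03) and the 4 H3 genes 1.37 (1.33 to 1.40). In HIST1, H2A had 1.20 (1.19 to 1.22) and H3 1.22 (1.20 to 1.24). The 2 expressed HIST3 genes, HIST3H2A and HIST3H2BB at chr1:228424845-228458558, together had a ratio of 0.827 (0.785 to 0.871). HIST4H4, the lone HIST4 gene at chr12:14770720-14771131, had 111 and 80.7 TPM and a ratio of 1.34 (1.26 to 1.43).

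Several HIST2 genes are near-identical copies. HIST2H2AA3 and HIST2H2AA4 share a run of 549 bases, HIST2H3A and HIST2H3C one of 1656 and HIST2H4A and HIST2H4B one of 1547, each longer than the deposited transcripts of 534, 507 and 396 bases. How reads that match several genes were counted is not stated, so each of these pairs is in effect 1 measurement. With each counted once, 17 genes were higher by the 25% rule. Other members of a class are also alike in sequence, and reads may be shared among them.

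A few H2B genes, 3 in all, are deposited with both a short transcript and longer ones, and in each the short form stood higher relative to the control than the long. The short HIST1H2BD transcript of 487 bases, chr6:26158121-26158607, had 6695 counts in the library labelled CIC knockdown and 3662 in the control, which is a ratio of 1.247 (1.197 to 1.299). Its spliced transcript of 814 bases, which ends at position 26171349, had 5674 and 3919 counts, or a ratio of 0.987 (0.948 to 1.03). Another, of 897 bases, had 480 and 671 counts, or a ratio of 0.488 (0.433 to 0.549). The short form thus made up 52.1% of the gene's counts in the library labelled CIC knockdown and 44.4% in the control.

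The short HIST1H2BK transcript of 498 bases, chr6:27146361-27146858, had 4245 and 2493 counts, or a ratio of 1.16 (1.11 to 1.22), and its longer one of 839 bases had 5894 and 4538 counts, or a ratio of 0.886 (0.852 to 0.921). The longer form made up 58.1% of the gene's counts in the library labelled CIC knockdown, against 64.5% in the control. The short HIST2H2BF transcript of 495 bases, chr1:149811879-149812373, had 9339 and 5340 counts, or a ratio of 1.19 (1.15 to 1.23), while its longer one of 999 bases had 145 and 149 counts, or a ratio of 0.664 (0.524 to 0.840). In all 3 genes the interval of the short form lay above 1 and that of no longer form did. The share of all transcripts with such intervals was not computed. Across the histone genes no such difference was seen by annotation. The 16 genes with an annotated extension past the stem-loop had a median log2 ratio of 0.255. The 47 others with at least 100 counts had 0.259.

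**Figure D3:**
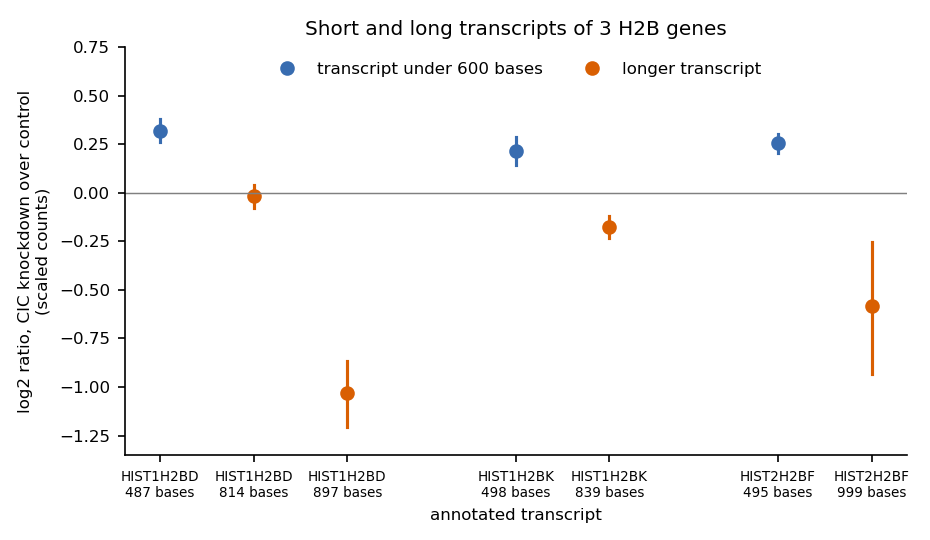
Log2 ratio (vertical axis, CIC knockdown over control, scaled counts) of each annotated transcript of HIST1H2BD, HIST1H2BK and HIST2H2BF, with 95% counting intervals. The short transcripts (blue) lie above 0 and the longer ones (orange) at or below it.

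The authors' assembly added longer models for 5 members, and the ratios of these lay on both sides of 1. Those of HIST1H2AC, of 1666 and 1730 bases, had 3547 and 1848 counts in the library labelled CIC knockdown against 1662 and 997 in the control, ratios of 1.47 and 1.28. The main extended model of HIST1H2BN, of 2661 bases, had 1430 and 422 counts, a ratio of 2.33, whereas that of HIST1H2AK, of 5173 bases, had 669 and 1063 counts, a ratio of 0.433. That of HIST1H2BO had 39 and 2450 counts, although the whole gene with it had 4817 and 2485. How reads were divided between such models is an estimate, and the values for single transcripts depend on it.

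H2A and H2B genes often stand head to head, with their promoters in the gap between them. There were 12 such pairs with starts less than 1000 bases apart, in fact 224 to 323 in the 11 pairs with enough counts in both genes, and these pairs were looked at after the gene values were seen. In the 11 pairs the log2 ratios of the partners had a Pearson r of 0.46 and a Spearman rho of 0.59; the pairs share 2 libraries and are not replicates. HIST1H2AJ and HIST1H2BM were both near the top of their class, at 0.45 and 0.40, and HIST3H2A and HIST3H2BB were both the lowest, at -0.32 and -0.17. HIST1H2AG and HIST1H2BJ were level with each other at 0.30 and 0.29. Other partners differed, most of all HIST1H2AH at 0.44 and HIST1H2BK at -0.024 (0.061 in TPM), and the median absolute difference was 0.17.

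**Figure D4:**
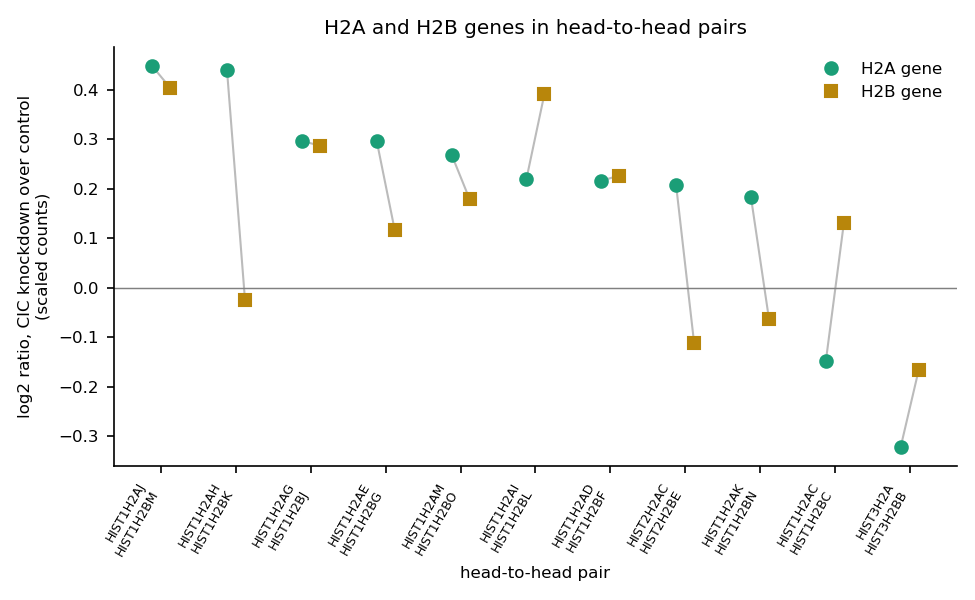
Log2 ratio (vertical axis, CIC knockdown over control, scaled counts) of the H2A gene (circle) and the H2B gene (square) in each of 11 head-to-head pairs, in the order of the H2A value. The H2A gene has the higher ratio in 7 pairs, and both genes of HIST3H2A and HIST3H2BB lie below 0.

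The classes also differ in their promoters. RefSeq windows on GRCh38.p14, from 250 bases before to 50 after the start, were found for 66 of the 71 genes; 4 of these had more than 1 window, and a motif was counted where any window held it. Motifs were searched on both strands, and they were chosen after the gene values were seen. The TATA motif TATAAA was in 45 of the 66 (68.2%), against 14.0% of 27305 genes. The CCAAT motif was in all 6 H1, 16 H2A, 18 H2B and 13 H3 genes but in 3 of 13 H4 genes, against 39.7% of all genes. The octamer ATTTGCAT, the sequence read by POU-domain factors such as POU2F1, was in 11 of 16 H2A and 14 of 18 H2B genes, in 1 H3 gene and in no H1 or H4 gene, against 2.19% of all genes. That H3 gene, HIST1H3D, is deposited with the same start as HIST1H2AD, which also held the octamer, so it may not be a separate H3 promoter. The H1 motif AAACACA was in 6 of 6 H1 genes, 1 H2A and 2 H3 genes, against 6.94%. An E2F-type motif, TTTCGCGC, was in 12 of the 66, against 0.630%. A 13-base H4 motif begins TCAATC and, after any base, ends GGTCCG. By exact match it was in 2 H4 genes, the near-identical copies HIST2H4A and HIST2H4B, and in no other gene.

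Windows are printed for the genes with the highest ratio in the H1, H2B, H3 and H4 classes and for HIST3H2A, the lowest of all, each on its gene's own strand with the TATA, CCAAT, octamer and H1 motifs in capitals on either strand. They lie at chr6:27867539-27867838 (minus strand), chr6:27814772-27815071 (plus), chr1:149813644-149813943 (minus), chr6:26189063-26189362 (minus) and chr1:228457824-228458123 (minus).
HIST1H1B: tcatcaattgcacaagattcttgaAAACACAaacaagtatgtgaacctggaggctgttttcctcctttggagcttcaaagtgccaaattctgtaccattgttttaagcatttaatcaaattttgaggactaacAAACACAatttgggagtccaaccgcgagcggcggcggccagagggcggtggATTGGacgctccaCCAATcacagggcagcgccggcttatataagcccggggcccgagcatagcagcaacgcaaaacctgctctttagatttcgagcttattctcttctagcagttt
HIST1H2BM: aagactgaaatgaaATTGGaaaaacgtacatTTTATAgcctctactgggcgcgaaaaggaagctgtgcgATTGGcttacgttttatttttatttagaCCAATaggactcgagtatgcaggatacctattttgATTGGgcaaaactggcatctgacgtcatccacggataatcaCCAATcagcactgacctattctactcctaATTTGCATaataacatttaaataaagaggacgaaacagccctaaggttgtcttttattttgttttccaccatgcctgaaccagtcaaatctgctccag
HIST2H3D: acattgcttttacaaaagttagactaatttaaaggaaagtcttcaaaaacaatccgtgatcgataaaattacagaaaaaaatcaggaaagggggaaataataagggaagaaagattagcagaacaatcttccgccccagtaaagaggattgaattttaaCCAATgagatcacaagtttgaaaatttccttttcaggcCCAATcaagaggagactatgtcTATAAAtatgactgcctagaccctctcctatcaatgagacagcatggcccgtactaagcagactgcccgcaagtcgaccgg
HIST1H4D: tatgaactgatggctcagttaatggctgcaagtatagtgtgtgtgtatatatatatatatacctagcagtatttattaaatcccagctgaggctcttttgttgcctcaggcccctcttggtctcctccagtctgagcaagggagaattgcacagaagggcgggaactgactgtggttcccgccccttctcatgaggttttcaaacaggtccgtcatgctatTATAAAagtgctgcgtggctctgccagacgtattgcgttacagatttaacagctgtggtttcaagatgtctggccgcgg
HIST3H2A: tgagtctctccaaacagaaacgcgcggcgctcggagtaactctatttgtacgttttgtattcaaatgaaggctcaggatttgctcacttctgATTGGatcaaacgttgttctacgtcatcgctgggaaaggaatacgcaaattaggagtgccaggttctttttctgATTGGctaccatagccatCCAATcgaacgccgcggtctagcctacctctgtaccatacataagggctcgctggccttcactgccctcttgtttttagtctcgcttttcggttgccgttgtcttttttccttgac

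HIST1H1B held the H1 motif from bases 25 and 134 of its window and CCAAT motifs from bases 185 and 198. HIST2H3D held TATAAA from base 220 and HIST1H4D from base 222. HIST1H2BM held the octamer from base 203 and 5 CCAAT motifs, and HIST3H2A held 3 CCAAT motifs and none of the other motifs.

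As a description of these 2 libraries, genes with TATAAA and at least 100 counts had a median log2 ratio of 0.26 (39 genes), and those without 0.23 (19). In H2A, 10 genes with the octamer had a median of 0.28 and 5 without it one of -0.042. In H2B, 13 with it had 0.18 and 4 without it 0.012. Over all classes the order was the other way, 0.21 for 24 genes with it and 0.27 for 34 without. The E2F-type motif split H2A and H2B alike. In H2A, 5 genes with that motif had 0.30 and 10 without 0.12, and in H2B 6 with it had 0.26 and 11 without 0.13. In H3, 1 gene with it had 0.26 and 11 without 0.38. Paired genes start 224 to 323 bases apart, so their windows overlap and the H2A and H2B values are not separate observations. HIST3H2A, HIST1H2AI and HIST1H2AK, all without the octamer, are partners of HIST3H2BB, HIST1H2BL and HIST1H2BN, also without it. HIST2H2AA3 and HIST2H2AA4, which lack it too, are near-identical copies. The H3 gene with it, HIST1H3D, was at -0.17, and its reads cannot be fully told apart from those of HIST1H2AD. Genes of a class share sequence and clusters and are not replicates.

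Among the factors that switch on, cut and hold histone mRNA, SLBP stood out. Of 29 such genes, all with at least 100 counts, 18 (62.1%) had intervals above 1 and 4 below, against 33.8% and 27.3% of all genes. By the 25% rule 5 (17.2%) were higher and 0 lower, and 12.4% of all genes were higher by that rule, so the share is near the background. The median log2 ratio was 0.14. SLBP, the stem-loop binding protein, differed most, with 4377 counts (32.2 TPM) in the library labelled CIC knockdown against 1358 (11.2 TPM) in the control, a log2 ratio of 1.14. The difference lay in its 3 shorter transcripts, which had 3392 and 726 counts, that is a ratio of 3.19 (2.94 to 3.46), while the 6660-base transcript had 985 and 632, a ratio of 1.06 (0.961 to 1.18).

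The activators of histone transcription differed little: NPAT, the coactivator that cyclin E and CDK2 phosphorylate at the histone clusters, had 5.40 and 5.11 TPM (log2 ratio 0.046), and CASP8AP2 had a log2 ratio of 0.072. The E cyclins were higher, CCNE1 with 12.5 and 7.10 TPM (0.73) and CCNE2 with a log2 ratio of 0.44. MIF4GD, which links SLBP to translation, had 0.45, TUT4, a terminal uridylyltransferase, had 0.37 (0.069 in TPM), and UPF1 and CDK2, the next, 0.28 each. LSM11, a subunit of the U7 particle, had -0.18.

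The chaperones that carry histones to DNA had a median log2 ratio of 0.13 over 25 genes, with 16 intervals (64.0%) above 1 and 3 below, against 33.8% and 27.3% of all genes. By the 25% rule 7 (28%) were higher and 1 lower, against 12.4% and 9.58% of all genes. The 7 higher ones were CHAF1B (0.55) and CHAF1A (0.39), subunits of CAF-1, which places H3 and H4 at replication forks, ASF1B (0.51), NASP (0.37), TONSL (0.34) and MCM2 (0.33), which handle H3 and H4, and HJURP (0.37), the chaperone of the centromeric CENPA. ANP32E, which removes H2A.Z from chromatin, went the other way, with 2013 counts (8.91 TPM) in the library labelled CIC knockdown and 2890 (18.4 TPM) in the control, a log2 ratio of -1.07.

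Of 12 replication-independent histone genes, which are made largely outside replication and mostly from mRNAs with poly(A) tails, 11 had at least 100 counts. Their median log2 ratio was 0.20, with 9 intervals (81.8%) above 1 and 2 below, against 33.8% and 27.3% of all genes. By the 25% rule 2 (18.2%) were higher, near the 12.4% of all genes. CENPA had 15.0 and 9.62 TPM (0.61) and H2AFY2, a macroH2A, 0.34, while H2AFX, which carries the mark of DNA breaks, had 0.27. The abundant H3.3 genes H3F3B and H3F3A had -0.018 (0.017 in TPM) and -0.088. The summed ratio of all 12, to which H3F3B gives most counts, was 1.03 (1.02 to 1.03), below that of the replication-dependent genes.

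Genes of S phase itself were higher too. In a list of 26 replication genes, chosen after the histone values were seen and including PCNA, the MCM subunits MCM3 to MCM7, RRM2 and CCNA2, the summed ratio was 1.24 (1.231 to 1.254) and the median log2 ratio 0.30. The log2 ratios ran from 0.012 to 0.63. Of the 26 genes, 23 (88.5%) had intervals above 1, against 33.8% of all genes. By the 25% rule 12 (46.2%) were higher, against 12.4%. PCNA had a log2 ratio of 0.36, RRM2 0.44, CDC6 0.54 and CDC45 0.63. The part of the S phase genes' shift in the histone result was not tested.

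**Figure D5:**
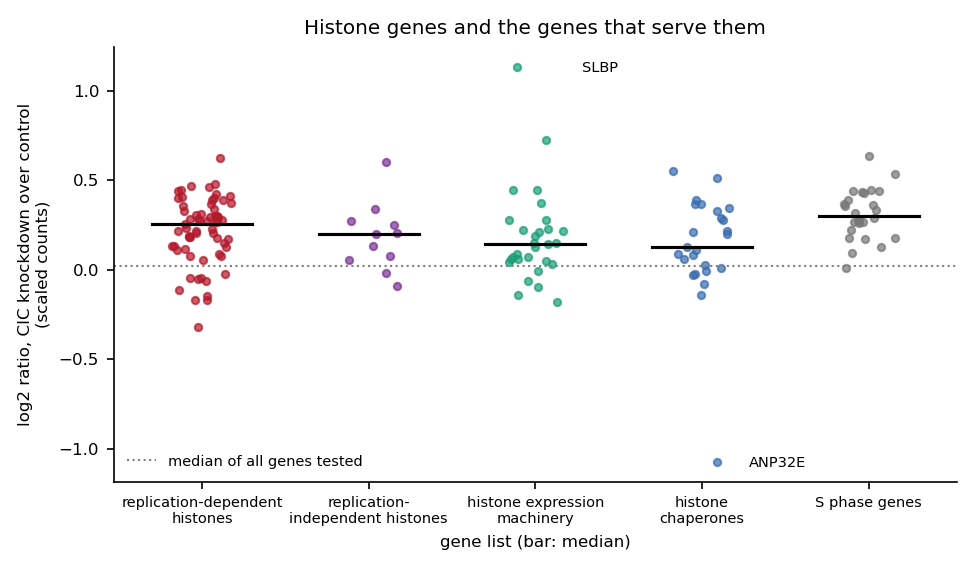
Log2 ratio (vertical axis, CIC knockdown over control, scaled counts) of each gene with at least 100 counts in 5 lists, with list medians as black bars and the median of all genes tested as a dotted line. The medians are 0.26 for the replication-dependent histones, 0.20 for the replication-independent histones, 0.14 for the expression machinery, 0.13 for the chaperones and 0.30 for the S phase genes, with SLBP at 1.14 and ANP32E at -1.07 farthest out.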

How the data were processed

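One library labelled CIC knockdown and 1 labelled control were compared; the design text speaks of duplicates, and whether a column pools them is not stated. Trimmomatic, HISAT2, StringTie and GRCh38 are named in the submitters' processing notes, with no tool version. Read counts, FPKM and TPM are given for genes and for transcripts, per the file headers. The deposited counts behaved as estimated counts: of transcripts with at most 1000 counts, 99.94% in the library labelled CIC knockdown and 99.96% in the control lay 0 to 1 above FPKM times length times a constant (tolerance 0.01). They were whole numbers and were not rounded again. FPKM and TPM were computed by the authors. No strand setting for counting is given, and 10 of the 71 genes overlap another gene. Columns marked KD were matched to the CIC knockdown title and columns marked C to the control; 0 columns lacked a sample.

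Counts were scaled with TMM factors (edgeR 4.0.16, R 4.3.3), and log2 ratios used a prior count of 2. Intervals are exact Clopper-Pearson 95% intervals of the scaled ratio (SciPy 1.17.1). A gene needed 100 counts in 1 library. The method was tested on simulated counts with counting error only. That test does not cover differences between libraries or reads shared among genes. Alternatives were DESeq2 1.42.0 size factors, library totals, TPM, FPKM, the gene table with assembled transcripts, other count minimums, halved counts and other folds. Named in each class were the 3 genes with the highest mean TPM, the 2 highest and 2 lowest log2 ratios, genes with several transcripts and testis types, and in the other lists up to 8 genes by absolute log2 ratio plus SLBP, NPAT, CASP8AP2 and CIC; others were chosen after their values were seen. The genes and lists were chosen with earlier results of these data known.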

Additional observations from a re-analysis of the deposited data

How the results depend on the processing

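With 1 library per group nothing separates a difference between conditions from one between libraries. Of the 71 genes, 8 were below 100 counts, 4 of them at 0 in both libraries, and nothing was concluded from those. No paired analysis was possible because each group has 1 library. The median log2 ratio of the histone genes was 0.25 to 0.29 under every alternative. The number higher by the 25% rule was 17 to 24, apart from 0 at 2-fold and 51 by the interval alone. The median over all genes moved as well, from 0.023 to 0.036 by library totals, 0.057 in TPM, 0.038 in FPKM and 0.034 with assembled transcripts. The share of all genes past the 25% rule was computed for the main scaling only. In the table with assembled transcripts 1 gene was lower, HIST1H3D, with 1077 and 1014 counts (log2 ratio -0.45). The summed ratio was 1.16 by library totals, 1.20 in TPM, 1.18 in FPKM and 1.18 with assembled transcripts. In TPM the class ratios were 1.22 (H1), 1.13 (H2A), 1.15 (H2B), 1.31 (H3) and 1.24 (H4), and in FPKM 1.12 (H2A), 1.14 (H2B) and 1.29 (H3). H2A had 1.16 with assembled transcripts and 1.13 without its most abundant gene, and H1 had 1.28 without its own. HIST1 had 1.19 by library totals, 1.21 in TPM, 1.20 in FPKM and 1.21 with assembled transcripts, and HIST2 had 1.16, 1.15 and 1.12 in the last 3. The replication-independent median was 0.14 with assembled transcripts. HIST1H2BH, which has no assembled model, had 112 and 71 counts with assembled transcripts, against 5678 and 3187 without them. Its log2 ratio was 0.12 there, against 0.28. Signs turned for FIP1L1 (0.034 in TPM, 0.015 in FPKM), H3F3B (0.017 in TPM), SUPT6H (0.018 in TPM) and HIST1H2BK (0.061 in TPM, 0.042 in FPKM), and with assembled transcripts for H2AFJ (-2.26), HIST1H2AC (1.00), HIST1H2AK (-0.16) and HIST1H3E (0.021). HIRA, SUPT16H and WDR33, all just below 0, also turned, to at most 0.043. The causes were not tested.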

Other observations

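The 7 other genes or pseudogenes with histone cluster symbols were not annotated as protein-coding and lay outside the count of 71. HIST2H3DP1 had 102 counts in the library labelled CIC knockdown and 34 in the control, HIST2H2BA had 185 and 104, and HIST2H2BC had 160 and 107. HIST2H2BB had 22 and 30 counts and HIST3H2BA 19 and 7, and HIST1H2APS1 and HIST1H2BPS1 were at 0 in both.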
